A study of Mus musculus with 2 samples.

Results

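C1q macrophages without a captured transcript of the resident markers *Lyve1*, *Folr2* and *Cd163* were described in mouse abdominal aorta. They came from a library of control mice and a library of mice given angiotensin II with high salt. They numbered 1422 of the 35848 cells kept, with 45 of 11288 in the Control library and 1377 of 24560 in the AngII+HS library. A cell was a member when it held at least 5 unique molecular identifiers (UMIs, each standing for 1 captured RNA molecule) from the complement C1q chains *C1qa*, *C1qb* and *C1qc*, at least 1 from *Csf1r* and *Cd68*, none from *Lyve1*, *Folr2* and *Cd163*, and none from 1 further gene. It also had to hold fewer than 10 UMIs from *S100a8* and *S100a9*, none from *Cdh5*, none from *Cd3e* and *Cd79a*, and at most 3 from *Dcn*, so that cells with marked neutrophil, endothelial, lymphocyte or fibroblast transcripts stayed out. The members were thus chosen by the measured UMIs of these 15 genes, which are given below only as a description.

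Both libraries came from male C57BL/6J mice at 5 months of age, with no transgene or deletion named for either group. The AngII+HS mice received AngII at 1500 ng/kg/min by osmotic minipump for 28 days and drank water with 0.9% NaCl and 0.2% KCl, whereas the Control mice received normal saline. Tissue was digested with enzymes and pooled. The series design and a figure legend of the paper give 5 mice for each library. The extraction protocol gives 1 control and 2 AngII+HS mice, so the number of animals behind each library is unsettled. There was 1 library for each condition. No test between conditions could therefore be made, and each 95% interval below is an exact binomial or Poisson interval that covers counting error only, not differences between mice. In all, 11448 Control barcodes held 86618995 UMIs and 24804 AngII+HS barcodes held 117146856 UMIs. The barcode list recorded with each library had as many lines as the matrix of the other library. The matrices were taken as recorded. If the matrices themselves had been exchanged, the directions between libraries given below would be reversed, which was not tested.

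Macrophages of the artery wall come from long-lived resident cells, which often carry the hyaluronan receptor *Lyve1*, the folate receptor *Folr2* and the hemoglobin scavenger receptor *Cd163*, and from blood monocytes that enter the wall in inflammation. C1q, the recognition molecule of the classical complement pathway, is made mainly by macrophages, which also use it to tag dying cells for uptake. *Csf1r* is the receptor for the growth factor that keeps macrophages alive.

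Of kept cells, the members made up 0.399% in Control (0.291 to 0.533%) and 5.61% in AngII+HS (5.32 to 5.90%). Among all C1q macrophages, which met the same conditions except those on the resident trio and on the further gene, the share was 11.7% in Control (45 of 384, 8.68 to 15.4%) and 58.4% in AngII+HS (1377 of 2359, 56.4 to 60.4%). Resident-like cells, with at least 1 UMI of the trio and otherwise the same conditions as the members, were 88.3% in Control (339 cells) and 18.9% in AngII+HS (447 cells). The other AngII+HS C1q macrophages were kept out of both groups by the further condition and are not described.

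**Figure D1:**
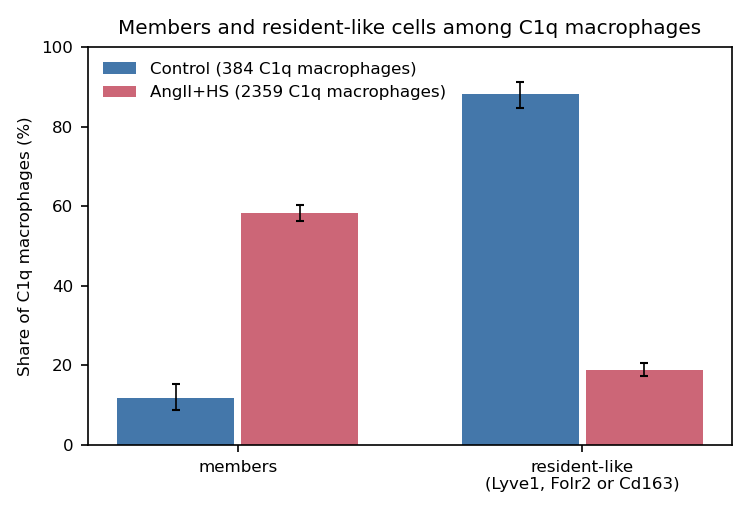
Members and resident-like cells as a share of C1q macrophages (percent, vertical axis) in the Control (blue) and AngII+HS (red) library, with exact binomial 95% intervals as error bars. The members were 11.7% of 384 cells in Control and 58.4% of 2359 in AngII+HS, and the resident-like cells 88.3 and 18.9%.

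An absent transcript depends on depth, so each C1q macrophage was also thinned to 2000 UMIs, which left out 20 Control and 116 AngII+HS cells. After thinning, 21.4% of Control (78 of 364) and 68.8% of AngII+HS C1q macrophages (1544 of 2243) met the zero conditions of the gate on the trio and the further gene, against 11.5 and 58.8% of the same cells before. The Control members had a median of 4856 UMIs (763 to 20419) and 1903 genes, and the AngII+HS members 4489 UMIs (530 to 17102) and 1844 genes. The median mitochondrial share was 2.49% in Control and 1.24% in AngII+HS members. In all, 269806 Control and 6812279 AngII+HS UMIs lay behind the values below, so precision was set by the 45 Control cells.

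Few cells lay at the edge of the C1q condition, while more lay at the edge of the zero conditions. Exactly 5 C1q UMIs were held by 3 Control and 29 AngII+HS members, and 4 C1q UMIs, just outside, by 0 and 35 cells. A single UMI of the resident trio kept out 34 of 339 resident-like cells in Control and 159 of 447 in AngII+HS. For the level that free RNA can give, T and B cells, which should lack the trio, held a trio UMI in 2.89% of 173 Control and 2.05% of 1655 AngII+HS cells, at median depths of 4315 and 2497 UMIs. The median C1q sum was 19 UMIs in a Control and 31 in an AngII+HS member. Summed over the members and scaled to 1000000 UMIs (CPM), *C1qa* had 1438 CPM in Control and 2848 CPM in AngII+HS, *C1qb* 1171 and 2633 CPM, and *Csf1r* 382 and 411 CPM.

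The macrophage label held in both libraries. *Adgre1*, which encodes the macrophage antigen F4/80, had 448 CPM in Control and 413 CPM in AngII+HS members, against 0 and 13.2 CPM in lymphocytes of the same libraries. *Lyz2*, which encodes lysozyme, had 2954 CPM in Control and 4858 CPM in AngII+HS members, against 19.5 and 279 CPM in lymphocytes. Each of the 18 macrophage identity genes outside the gate had a mean of at least 37.1 CPM over the members of both libraries. Dendritic cell genes summed to 14.8 CPM in Control and 87.9 CPM in AngII+HS members, with *Cd209a*, *Clec9a* and *Siglech* at 0 in Control. The T and NK cell genes summed to 3.71 and 16.3 CPM, with *Trac* the most abundant in AngII+HS, and the B and plasma cell genes to 51.9 and 151 CPM, with *Ighm* the most abundant.

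The same 10 genes led both libraries in UMIs, mitochondrial and ribosomal protein genes left out. They were *Malat1*, *Fth1*, *Tmsb4x*, *Ccl4*, *Cxcl2*, *Ftl1*, *Tpt1*, *Cd74*, *Apoe* and *Actb*. *Apoe*, the lipid carrier that macrophages secrete, had 4729 CPM in Control and 14720 CPM in AngII+HS members, a ratio of 3.11 (2.95 to 3.29). *Ccl4*, a chemokine that draws in lymphocytes and monocytes, had 10196 CPM in Control and 9330 CPM in AngII+HS members. *Cxcl2*, a neutrophil chemokine, had 9918 and 11425 CPM.

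Ratios were formed for 4253 genes, those past a floor of 37.1 CPM in the mean of both libraries, which is worth 10 UMIs among the Control members. With 0.5 UMIs added to each sum, 309 genes (7.27%) were at least 2-fold higher in AngII+HS and 548 (12.9%) at least 2-fold lower, with a median log2 ratio of -0.13. Genes above that level in 1 library only had to differ, and among the 3560 above it in both, 209 were at least 2-fold higher and 263 at least 2-fold lower, with a median of -0.08. Scaling by trimmed means (TMM) in place of totals shifted the median of all genes by 0.40, to 0.28, and turned the split to 761 higher and 332 lower. Ratios near 2-fold are therefore best read against the median of all genes.

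Transcripts of other wall cells moved with the comparison. The 7 smooth muscle genes summed to 7009 CPM in Control and 1171 CPM in AngII+HS members, with *Acta2* the most abundant and none at 0, and to 7195 and 1865 CPM in lymphocytes. Of the Control members, 5 had at least 1% of their UMIs on genes of other cell types. These 5 held 24.3% of the Control member UMIs and 90.2% of their smooth muscle UMIs, and 4 of them were among the cells scored as doublets (2 cells in 1 droplet). The same criterion took 26 AngII+HS members with 3.31% of the UMIs. Without these cells, smooth muscle genes summed to 910 CPM in Control and 473 CPM in AngII+HS members, and 253 genes were at least 2-fold higher and 353 lower. Fibroblast genes summed to 619 and 825 CPM with *Col1a1* the most abundant in AngII+HS, endothelial genes to 267 and 190 CPM with *Fabp4* the most abundant and *Kdr* and *Cldn5* at 0 in Control, and Schwann cell genes to 48.2 and 64.6 CPM. Neutrophil genes summed to 59.3 and 74.3 CPM, with *Csf3r* the most abundant and 7 of the 8 at 0 in Control. Counts without the 5 and 26 members, a setting added after the data were seen, are given below for lists in which they changed.

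Of the 12 named genes with the highest ratios, *Fabp5* came first. *Fabp5* (chromosome 3, 10077602 to 10081674, plus strand, GRCm39), which encodes a fatty acid carrier, had 11.1 CPM in Control members (3 UMIs in 3 cells) and 715 CPM in AngII+HS members, a ratio of 64.3 (22.0 to 312). After thinning, it was found in 4.76% of Control and 30.4% of AngII+HS members, against 5.39 and 13.01% of lymphocytes. The Control level was thus at the lymphocyte level, and the AngII+HS level was not.

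*Irf7* (chromosome 7, 140842619 to 140846398, minus strand), the master transcription factor of the type I interferon response, had no UMI in the 45 Control members, which by the limit of 3 counts allows up to 6.67% of cells with a UMI, and 86.5 CPM in AngII+HS members. Against the floor of 3 UMIs over the Control group, its AngII+HS level was at least 7.78-fold higher. *Vegfa* (chromosome 17, 46327919 to 46343309, minus strand), the main growth factor of blood vessels, had 7.41 CPM in Control (2 UMIs in 1 cell) and 168 CPM in AngII+HS members, a ratio of 22.7 (6.26 to 187). *Acp5*, a lysosomal acid phosphatase best known from osteoclasts, had the same 2 Control UMIs and 168 CPM in AngII+HS members. The Control side of these genes rests on 0 to 3 UMIs.

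*Il1b* (chromosome 2, 129206490 to 129213059, minus strand), the inflammatory cytokine interleukin-1 beta, was well counted on both sides. It had 356 CPM in Control (96 UMIs in 16 cells) and 2571 CPM in AngII+HS members, a ratio of 7.22 (5.91 to 8.92). Thinned, 26.2% of Control and 71.7% of AngII+HS members held an *Il1b* UMI, against 0 and 17.0% of lymphocytes. *Ifi30*, a thiol reductase of the antigen-processing compartment, had 77.8 CPM in Control and 538 CPM in AngII+HS members, a ratio of 6.91 (4.51 to 11.2). *Clec4n*, the fungal-pattern receptor dectin-2, had 33.4 CPM in Control and 245 CPM in AngII+HS members.

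The other named higher genes were *Ccl8*, a chemokine of monocytes, at 11.1 CPM in Control and 201 CPM in AngII+HS, *Pdpn*, the membrane glycoprotein podoplanin, at 11.1 and 152 CPM, *Apoc2*, the cofactor of lipoprotein lipase, at 7.41 and 103 CPM, *Mmp19*, a matrix metalloproteinase, at 7.41 and 68.0 CPM, and *Fgr*, a Src-family kinase of myeloid cells, at 7.41 and 66.8 CPM. Each had 2 or 3 UMIs in Control. Among the 12, *Il1b* and *Ifi30* were above the floor in both libraries. The others passed it through the AngII+HS library only, so that their high ratios were largely fixed by the choice of genes.

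**Figure D2:**
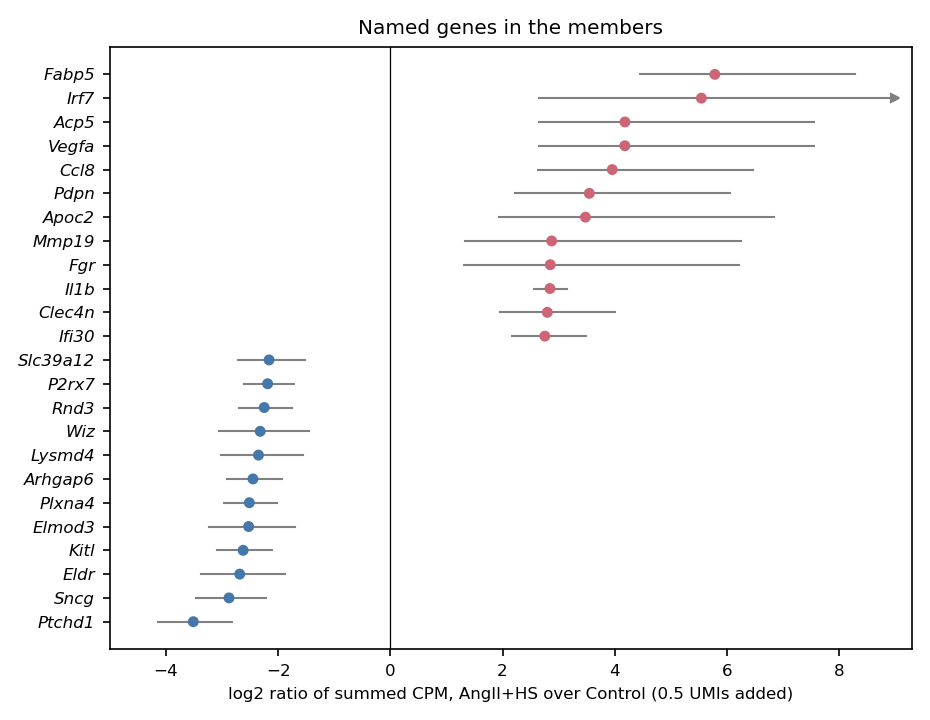
log2 ratio of summed CPM (horizontal axis, AngII+HS over Control, 0.5 UMIs added) of the 12 highest-ranked and the 12 lowest-ranked named genes, with exact 95% intervals for counting error. The ratios run from 5.79 for *Fabp5* to -3.51 for *Ptchd1*, and the intervals of genes with few Control UMIs are the widest.

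Of the 12 named genes with the lowest ratios, *P2rx7* was above the floor in both libraries. The others passed it through the Control library only, so that their low ratios were largely fixed by the choice of genes. *Kitl* (chromosome 10, 99851492 to 99936278, plus strand), which encodes stem cell factor, the ligand of the receptor Kit, had 170 CPM in Control members (46 UMIs in 18 cells) and 27.9 CPM in AngII+HS members, a log2 ratio of -2.62 (-3.08 to -2.11). It was higher in resident-like cells of both libraries, at 598 CPM in Control and 171 CPM in AngII+HS. *P2rx7* (chromosome 5, 122781942 to 122830400, plus strand), an ATP-gated channel that triggers the release of interleukin-1 beta, had 189 CPM in Control and 41.8 CPM in AngII+HS members, a log2 ratio of -2.19 (-2.61 to -1.72).

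*Plxna4*, a semaphorin receptor subunit, had 178 CPM in Control and 31.4 CPM in AngII+HS members. *Slc39a12*, a zinc transporter, had 107 and 24.4 CPM, with 426 and 140 CPM in resident-like cells. *Ptchd1* (chromosome X, 154355526 to 154407276, minus strand), a Patched-domain protein, had the lowest ratio, at 111 and 9.84 CPM with a log2 ratio of -3.51 (-4.14 to -2.83), and its 30 Control UMIs came from 8 cells. *Arhgap6* and *Rnd3*, which act in small GTPase signaling, had log2 ratios of -2.45 and -2.25. *Sncg*, which encodes gamma-synuclein, had 72.4% of its Control UMIs in 1 cell and is not a value of the group. The remaining named lower genes were *Eldr*, *Elmod3*, *Lysmd4* and *Wiz*.

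The lists are taken by role, from identity and origin to effectors. For lists with no share beside their counts, 7.27% of all genes were at least 2-fold higher and 12.9% at least 2-fold lower. These shares hold for the main setting only. Under TMM scaling, 761 genes in place of 309 were higher and 332 in place of 548 lower. List counts under TMM scaling therefore follow that shift of all genes and add nothing for a list. Of the 18 macrophage identity genes, 6 were at least 2-fold higher in AngII+HS members and none lower, with a median log2 ratio of 0.58. The 18 were above the floor in both libraries, where 5.87% of all such genes were as much higher. *Ctss*, the macrophage cathepsin that trims the class II invariant chain, had 448 CPM in Control and 2170 CPM in AngII+HS members, a ratio of 4.84 (4.05 to 5.84). *Fcer1g*, an adaptor chain of activating receptors, had 938 and 2603 CPM, and *Tyrobp*, another, 541 and 1380 CPM. *Cd14*, the coreceptor for bacterial lipopolysaccharide, *Aif1* and the Fc receptor *Fcgr1* completed the 6. Without the members holding transcripts of other cells, 4 of the 18 were at least 2-fold higher, with *Cd14* at 0.77 and *Fcgr1* at 0.74.

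Resident markers that the gate did not use ranged from well detected to absent in the members. *Mrc1*, the mannose receptor, had 615 CPM in Control and 373 CPM in AngII+HS members, against 1668 and 1286 CPM in resident-like cells. *F13a1*, which encodes a clotting factor subunit, had 219 and 117 CPM, against 1940 and 1068 CPM. *Vsig4* and *Timd4*, further markers of resident cells, were at 0 in Control and under 4 CPM in AngII+HS members. *Ccl8* was the 1 of 9 resident companions past the floor, of 15 listed, that was at least 2-fold higher, and none was lower. In resident-like cells its values were 135 CPM in Control and 2111 CPM in AngII+HS. The count lower depended on the setting. Leaving out members with transcripts of other cells made 2 of the 9 lower, *Mrc1* at -1.01 and *F13a1* at -1.20, and equal weight per cell made 6 of 12 lower, with a median of -1.10.

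Of the 15 genes of monocyte-derived cells, 10 passed the floor, 5 at least 2-fold higher and 2 lower, with a median log2 ratio of 0.72. Of all genes, 7.27% were as much higher and 12.9% as much lower. The 7 above the floor in both libraries gave 4 higher and none lower, where 5.87 and 7.39% of all such genes were. The 5 were *S100a4* (200 and 611 CPM) and *S100a6* (434 and 974 CPM), calcium-binding proteins, *Thbs1*, the matrix protein thrombospondin-1 (185 and 813 CPM), *Ms4a4c* and *Plac8*. The last stood below its lymphocyte level in both libraries, a level that can include the lymphocytes' own transcripts. It stood at 0.92, which made the count 4, when members with transcripts of other cells were left out. *Ccr2*, the receptor by which monocytes enter inflamed tissue, had 119 CPM in Control and 141 CPM in AngII+HS members, a ratio of 1.19 (0.835 to 1.75) that includes 1. The 2 lower genes, *Vcan* and *F10*, had 60.0 and 93.8% of their Control UMIs in 1 cell.

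Genes of lipid handling were more often higher than lower. Each of the 17 passed the floor, 9 at least 2-fold higher and 1 lower, with a median log2 ratio of 1.19, where 7.27% of all genes were as much higher and 12.9% as much lower. The 15 above the floor in both libraries gave 7 higher and 1 lower, where 5.87% of all such genes were higher and 7.39% lower. *Trem2* (chromosome 17, 48653429 to 48661175, plus strand), the lipid-sensing receptor of lipid-associated macrophages, had 137 CPM in Control and 321 CPM in AngII+HS members, a ratio of 2.34 (1.69 to 3.33), against 0 and 7.29 CPM in lymphocytes. *Gpnmb*, a membrane glycoprotein of lipid-laden cells, had 33.4 CPM in Control (9 UMIs in 3 cells) and 229 CPM in AngII+HS members. *Abca1*, the cholesterol export pump, had 322 and 785 CPM, and *Plin2*, the coat protein of lipid droplets, 248 and 572 CPM.

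*Spp1* (chromosome 5, 104582165 to 104589235, plus strand), which encodes osteopontin, had 126 CPM in Control and 658 CPM in AngII+HS members, but 70.6% of its 34 Control UMIs lay in 1 cell and AngII+HS lymphocytes held 234 CPM. *Cd36*, the scavenger receptor for oxidized lipoproteins and fatty acids, was the 1 lower gene, with 474 CPM in Control and 168 CPM in AngII+HS members (log2 ratio -1.50, -1.76 to -1.22). Without members holding transcripts of other cells, 10 of the 17 were at least 2-fold higher, with *Lpl*, *Cd63* and *Fabp4* among them and *Trem2* and *Plin2* at 0.96 each. *Fabp4* is among the endothelial genes by which those members were picked, so its change was partly fixed beforehand.

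Lysosomal genes past 2-fold were higher without exception. Of 22, 20 passed the floor in both libraries, 9 at least 2-fold higher and none lower, with a median log2 ratio of 0.79, where 5.87% of all genes above the floor in both libraries were as much higher and 7.39% lower. *Ctsd*, the aspartic protease of lysosomes, had 467 CPM in Control and 1547 CPM in AngII+HS members, a ratio of 3.31 (2.78 to 3.98). *Grn*, a lysosomal regulator also secreted as a growth factor, had 271 and 674 CPM. *Npc2*, which carries cholesterol out of the lysosome, had 419 and 1011 CPM, whereas its partner *Npc1* had 159 and 144 CPM. Without members holding transcripts of other cells, 8 of the 20 were at least 2-fold higher and none lower, and under TMM scaling 14 were.

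None of the 6 class II genes of antigen presentation past the floor, of 10 listed, was past 2-fold in either direction. *H2-Ab1*, a class II beta chain, had 1612 CPM in Control and 2839 CPM in AngII+HS members, and *Cd74*, the invariant chain, 4967 and 7342 CPM. Of the 12 class I genes, 11 passed the floor and 2 were at least 2-fold higher, where 7.27% of all genes were. The 2 were *H2-K1* (1030 and 2384 CPM) and *B2m* (923 and 2184 CPM), the heavy and light chains of the class I complex. In lymphocytes *H2-K1* had 1236 and 1835 CPM and *B2m* 1002 and 1509 CPM. Leaving out members with transcripts of other cells kept *B2m* past 2-fold, at 1.03, and put *H2-K1* at 0.92. Other settings raised the class I count, to 7 of 12 under TMM scaling, which raised the ratios of all genes. It was 6 of 12 with 1 UMI allowed in the zero conditions. It was 5 of 12 after thinning to 2000 UMIs and 4 of 11 in cells of at least 3000 UMIs. Under TMM scaling, 1 of the 6 class II genes was also at least 2-fold higher.

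Of 23 cytokine and chemokine genes, 18 passed the floor, 5 at least 2-fold higher and none lower, where 7.27 and 12.9% of all genes were. Of the 17 above the floor in both libraries, 4 were higher, where 5.87% of all such genes were. The median log2 ratio was 0.36, and near 0 when doublets were removed. The 5 were *Il1b*, *Il1a*, *Il1rn*, *Il10* and *Cxcl3*, and *Il1a* stood at 0.83 when members with transcripts of other cells were left out, which made the count 4. *Il1rn*, the secreted blocker of the interleukin-1 receptor, had 107 CPM in Control and 540 CPM in AngII+HS members, a ratio of 5.02 (3.49 to 7.51). *Il10*, the anti-inflammatory cytokine interleukin-10, had 77.8 and 455 CPM, a ratio of 5.85 (3.82 to 9.46). The monocyte chemokine *Ccl2* had 1857 CPM in Control and 1492 CPM in AngII+HS members, and *Tnf* 1086 and 923 CPM.

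The sensing genes upstream of these cytokines gave 4 at least 2-fold higher of 11 past the floor and none lower, of 15 listed. The 11 were above the floor in both libraries, where 5.87% of all such genes were as much higher. The 4 were *Nfkbia*, the feedback inhibitor of NF-kappaB (1227 and 2740 CPM), the receptor gene *Tlr2* (222 and 472 CPM), *Clec4d* (133 and 366 CPM) and the inflammasome adaptor *Pycard* (37.1 and 98.1 CPM, with 111 and 104 CPM in lymphocytes). Leaving out members with transcripts of other cells gave 3 of 10, with *Tlr2* at 0.75, and TMM scaling gave 7 of 11. *Nlrp3*, the inflammasome sensor, had 678 CPM in Control and 896 CPM in AngII+HS members.

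Interferon-stimulated genes encode antiviral proteins switched on through the factor complex ISGF3, which binds a repeated GAAA element. Of the 17 listed, 9 passed the floor, 8 at least 2-fold higher and 1, *Stat2*, not past 2-fold, with a median log2 ratio of 1.38. Of all genes, 7.27% were as much higher. The 5 above the floor in both libraries were each at least 2-fold higher, where 5.87% of all such genes were. The list summed to 886 CPM in Control and 2301 CPM in AngII+HS members, and to 285 and 697 CPM in lymphocytes. Upstream sequence was read from RefSeq on GRCm38 for the 12 of 17 genes that matched, and searched in the 250 bases before the start for GAAANNGAAA or, on the other strand, TTTCNNTTTC, overlapping matches included. It was in 7 of the 12, *Isg15*, *Ifit1*, *Ifit3*, *Stat2*, *Rsad2*, *Bst2* and *Gbp2*, and in 936 of 27025 genes (3.46%) overall. Stretches are shown for 3 well-counted members, 5′ to 3′ on the gene's strand with the matches in capitals, to let the element be seen beside the values.
Isg15 (chr4:156200850-156200921, minus strand, 3 overlapping matches): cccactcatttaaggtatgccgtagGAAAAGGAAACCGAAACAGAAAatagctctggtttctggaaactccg
Ifit1 (chr19:34640760-34640838, plus strand, 2 matches): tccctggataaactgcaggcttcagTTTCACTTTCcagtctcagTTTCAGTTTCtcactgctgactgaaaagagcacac
Rsad2 (chr12:26456538-26456597, minus strand, 1 match): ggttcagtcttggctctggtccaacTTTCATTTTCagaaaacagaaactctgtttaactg

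*Isg15*, a ubiquitin-like modifier, had 119 CPM in Control and 256 CPM in AngII+HS members, a ratio of 2.16 (1.53 to 3.17). *Ifit1*, which blocks translation of foreign RNA, had 55.6 and 123 CPM, a ratio of 2.21 (1.33 to 3.96). *Rsad2*, the antiviral enzyme viperin, had 92.7 and 307 CPM, a ratio of 3.31 (2.23 to 5.12). *Bst2*, which tethers viruses to the membrane, had 159 and 420 CPM, and *Ifitm3* 274 and 672 CPM. *Irf7*, with no match in its window, had the highest ratio of the list, while *Stat2*, with 1 match, had 48.2 CPM in Control and 30.1 CPM in AngII+HS members. Without members holding transcripts of other cells, 4 of 6 past the floor were at least 2-fold higher, and *Isg15* and *Ifit1* stood at 0.78 and 0.73. The count was 3 of 11 after thinning to 2000 UMIs and 4 of 10 with equal weight per cell, with none lower in either.

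Receptors and effectors toward the wall were mixed. Of 13 chemokine and colony factor receptors, each past the floor, 2 were at least 2-fold higher, *Cxcr4*, the receptor of the retention chemokine CXCL12 (74.1 and 270 CPM), and *Csf2rb*, the shared chain of the receptors for GM-CSF and interleukin-3 (25.9 and 149 CPM). The second passed the floor through the AngII+HS library only. Of all genes, 7.27% were as much higher. Of the 12 receptors above the floor in both libraries, 1 was higher, where 5.87% of all such genes were. Of 14 growth factors and matrix proteins, 11 passed the floor, with *Vegfa*, *Tgfbi*, a TGF-beta-induced adhesion protein (222 and 529 CPM), and *Osm*, the cytokine oncostatin M (89.0 and 210 CPM), at least 2-fold higher and *Areg* lower. The median of this list was -0.30 and 0.10 under TMM scaling. *Osm* stood at 0.84, with 2 genes higher, when members with transcripts of other cells were left out.

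Of 17 matrix proteases and inhibitors, 12 passed the floor, 3 at least 2-fold higher and 3 lower, where 7.27 and 12.9% of all genes were. The 8 above the floor in both libraries gave none higher and 2 lower, where 5.87 and 7.39% of all such genes were. *Mmp14*, a membrane-bound collagenase, had 22.2 CPM in Control and 153 CPM in AngII+HS members, a ratio of 6.87 (3.14 to 18.7). *Mmp12* (chromosome 9, 7344381 to 7369499, plus strand), the macrophage elastase, had 345 CPM in Control, from 6 cells with 55.9% in 1 of them, and 210 CPM in AngII+HS members, of which 13.4% held a UMI. *Adam8* had its 6 Control UMIs in 1 cell. The 3 lower genes were *Mmp13*, with 71.4% of its Control UMIs in 1 cell, *Adamts1* and *Timp3*, and *Timp3* stood at 0.15 without members holding transcripts of other cells, where 2 of 9 were higher and 2, *Mmp13* and *Plau*, lower, with *Timp3* and *Adamts1* under the floor.

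Of 12 complement genes outside C1q, 7 passed the floor. *Cfp*, which encodes properdin and stabilizes the alternative pathway convertase, had 29.7 CPM in Control (8 UMIs in 8 cells) and 127 CPM in AngII+HS members, a ratio of 4.28 (2.16 to 9.95). *C3* had 85.7% of its 7 Control UMIs in 1 cell. Genes of the uptake of dying cells gave 2 higher, *Abca1* and *Msr1*, and 3 lower, *Cd36*, *Pros1* and *Mfge8*, of 15 past the floor and 18 listed. *Mfge8* stood at 0.31 without members holding transcripts of other cells, where 1 of 13, *Abca1*, was higher and 3, *Cd36*, *Mrc1* and *Elmo1*, were lower.

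The counts of the metabolic lists depended on the setting. Of 18 glycolysis and hypoxia genes, 14 passed the floor and 4 were at least 2-fold higher, *Vegfa*, *Slc2a1*, *Pgk1* and *Pgam1*. Of the 11 above the floor in both libraries, however, 1 was. The count was 3 of 13 without members holding transcripts of other cells and 8 of 14 under TMM scaling. Of 16 respiratory chain genes, 15 passed the floor, 1 at least 2-fold higher (*Cox5a*, 141 to 371 CPM) and none lower, with 8 of 12 higher without members holding transcripts of other cells. None of the 7 iron and heme genes past the floor was past 2-fold, and their median was -0.03, and 0.70 under TMM scaling. *Hmox1* stood at -1.13 without members holding transcripts of other cells. *Fth1*, the ferritin heavy chain, had 15044 CPM in Control and 21195 CPM in AngII+HS members.

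In the polarization list, 5 of 11 genes passed the floor. *Cd38*, an enzyme that breaks down NAD, had 37.1 CPM in Control and 133 CPM in AngII+HS members, and *Retnla* had its 33 Control UMIs in 1 cell. Leaving out members with transcripts of other cells put *Mrc1* past 2-fold lower in this list too. *Nos2*, the inducible nitric oxide synthase, was at 0 in Control and 3.08 CPM in AngII+HS members. Of 20 cell cycle genes, 3 passed the floor, and *Stmn1* and *Tubb5*, both of the tubulin system, were at least 2-fold higher. They rose to 147 and 312 CPM, against 132 and 317 CPM in AngII+HS lymphocytes. Of the 2 genes above the floor in both libraries, 1 was higher. *Mki67*, a marker of cycling cells, was found after thinning in 4.76% of Control and 7.28% of AngII+HS members, against 3.59 and 4.54% of lymphocytes.

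The immediate early and heat shock genes, which cells switch on within minutes of a stimulus or stress, were more often lower than higher. Each of the 19 passed the floor in both libraries, 12 at least 2-fold lower and 1 (*Ier3*) higher, with a median log2 ratio of -1.14. Of all such genes, 7.39% were as much lower. *Jun*, a subunit of the AP-1 factor, had 1434 CPM in Control and 225 CPM in AngII+HS members, a log2 ratio of -2.67 (-2.83 to -2.51). *Egr1*, an immediate early factor, had 2105 and 476 CPM, *Fos*, the partner of *Jun*, 3258 and 1104 CPM, and *Hspa1a*, the inducible chaperone Hsp70, 1994 and 679 CPM.

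The Control member with the most UMIs of each gene held 22.5% of the *Jun*, 22.4% of the *Egr1* and 25.3% of the *Fos* UMIs of the group. Without the members holding transcripts of other cells, 6 of the 19 were at least 2-fold lower, *Jun* (-2.15), *Klf2* (-1.98), *Hspa1b* (-1.80), *Hspa1a* (-1.66), *Egr1* (-1.34) and *Atf3* (-1.09), with *Fos* at -0.60, and *Nr4a1* (1.14) in place of *Ier3* (0.99) was the 1 higher. Under TMM scaling 7 of the 19 were at least 2-fold lower. In lymphocytes *Jun* had 698 CPM in Control and 180 CPM in AngII+HS. Genes of this kind also respond to enzymatic digestion of tissue, and its part in these values was not tested.

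Of 22 macrophage transcription factors, 17 passed the floor, 2 at least 2-fold higher and 2 lower. The 17 were above the floor in both libraries. Of all such genes, 5.87% were as much higher and 7.39% as much lower, so the list counts were not far from those shares. *Bhlhe40*, a repressor of the *Il10* gene, had 51.9 CPM in Control and 224 CPM in AngII+HS members. *Maf*, a factor of mature macrophages, had 297 CPM in Control and 206 CPM in AngII+HS members. *Id3* was lower at 619 and 210 CPM, but its log2 ratio was 0.12 without members holding transcripts of other cells, where 1 of 17, *Bhlhe40*, was higher and 4, *Pparg*, *Runx1*, *Mef2c* and *Mef2a*, were lower.

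Genes of the angiotensin and corticosteroid pathways were of interest given the treatment. *Agtr1a*, the receptor for angiotensin II, was at 0 in Control and 1.17 CPM in AngII+HS members, and *Agtr2* and *Ren1* were at 0 in both. Of the 15 listed, 7 passed the floor in both libraries, 3 at least 2-fold lower and none higher, where 7.39% of all such genes were as much lower. The 3 were *Nr3c1*, the glucocorticoid receptor (159 and 77.5 CPM), and its targets *Fkbp5* (159 and 50.9 CPM) and *Tsc22d3* (267 and 115 CPM). Their log2 ratios without members holding transcripts of other cells were -0.69, -1.79 and -1.51, which left 2 of 6 lower. The median of the list was -0.20. Under TMM scaling it was 0.20, with 1 gene higher and 1 lower.

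**Figure D3:**
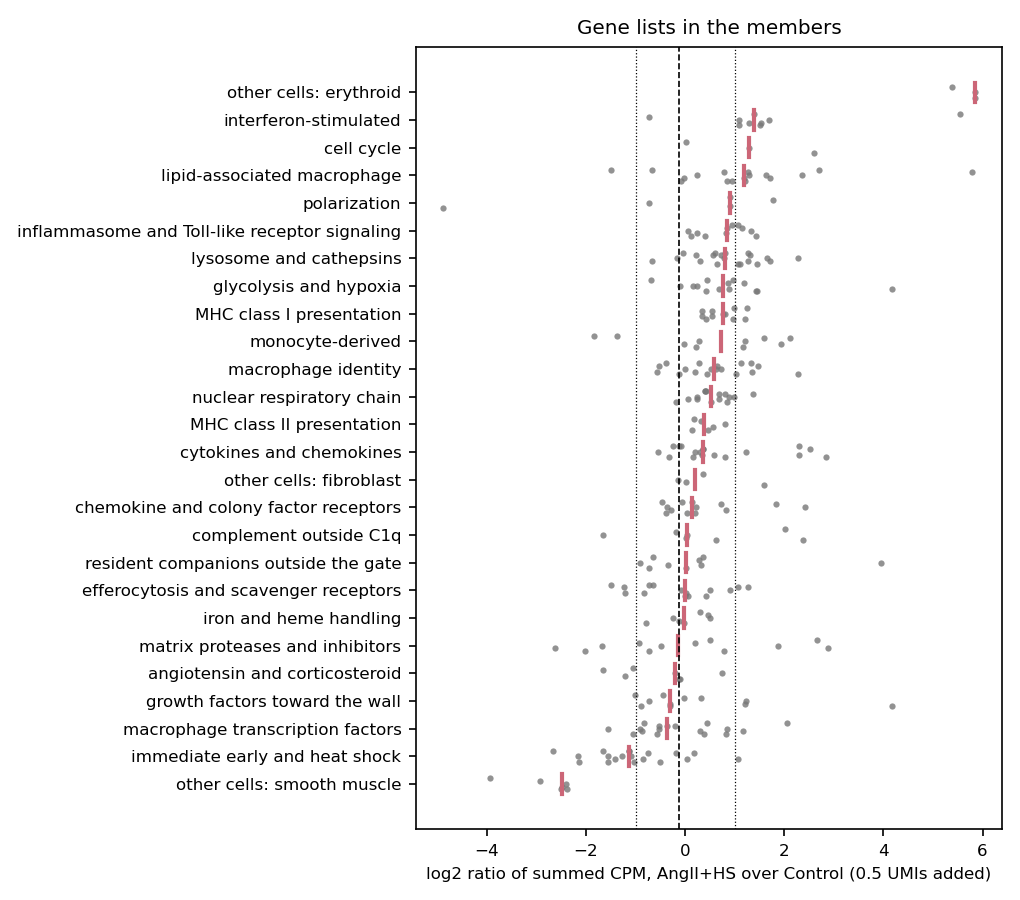
log2 ratio of summed CPM (horizontal axis, AngII+HS over Control, 0.5 UMIs added) of each list gene past the floor (points), with the median of each list as a bar. The dashed line is the median of all genes at -0.13 and the dotted lines are 2-fold, and list medians run from -2.49 for smooth muscle genes to 5.85 for erythroid genes, of which *Hba-a1* and *Hba-a2* had no UMI in Control members.

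The members were then set beside the resident-like cells of their own library. Which cells entered each gate was fixed by transcripts, so these are descriptions, and the counts cover 706 genes above lymphocyte level. Over resident-like cells, 109 genes were at least 2-fold higher and 64 lower in Control members, and 36 were higher and 60 lower in AngII+HS members. In both libraries, 31 genes were higher and 29 lower.

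Among the 31, ranked by the smaller of the 2 ratios, *Itgax*, which encodes the integrin CD11c of dendritic cells and some macrophages, came first. It had 29.7 CPM in Control (8 UMIs in 4 cells) and 46.7 CPM in AngII+HS members, against 1.07 and 11.8 CPM in resident-like cells. *Havcr2*, the inhibitory receptor TIM-3, had 92.7 CPM in Control (25 UMIs in 10 cells) and 85.4 CPM in AngII+HS members, against 6.94 and 25.5 CPM. *Il1b* was also among the first 10, with 809 CPM in AngII+HS resident-like cells against 2571 CPM in the members. *Bcl2a1a*, a survival factor of the Bcl-2 family, had 85.2 and 218 CPM, against 12.3 and 70.7 CPM in resident-like cells. The others in the first 10 were *AA467197*, *F11r*, *Apbb2*, *Klra2*, *Ptchd1* and *Arl5c*.

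Among the 29 lower genes, *Ccl8* came first and *F13a1* next, with the values given above. *Fcgrt*, the Fc receptor that recycles antibodies, had 48.2 CPM in Control and 73.4 CPM in AngII+HS members, against 293 and 318 CPM in resident-like cells. *Selenop*, a secreted selenium carrier, had 604 and 740 CPM, against 2009 and 2172 CPM. Outside the first 10, *Hmox1*, the enzyme that breaks down heme, had 849 CPM in Control members, with 40.6% of UMIs in 1 cell. It had 494 CPM in AngII+HS members, against 2124 and 1848 CPM in resident-like cells. The others in the first 10 were *Slc39a12*, *Kitl*, *Agmo*, *Mrc1*, *Psd3* and *Rgl1*.

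Genes with high ratios between libraries were not always higher in the members than in resident-like cells. In the AngII+HS library, *Fabp5* stood at 715 CPM in the members and 907 CPM in resident-like cells, and *Spp1* at 658 and 447 CPM. *H2-Ab1* was higher in the members, at 2839 and 1415 CPM. *Ccr2* stood at 141 and 72.1 CPM.

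**Figure D4:**
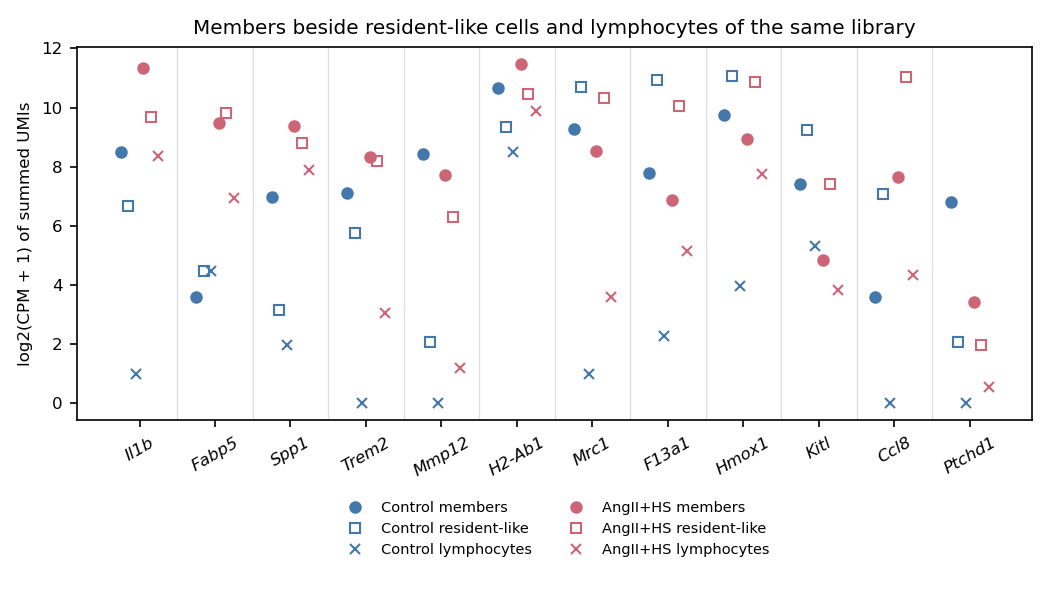
Level of 12 genes as log2(CPM + 1) of summed UMIs (vertical axis) in members (filled circles), resident-like cells (squares) and lymphocytes (crosses) of the Control (blue) and AngII+HS (red) library. *H2-Ab1* is higher in the members than in the resident-like cells of each library, whereas *F13a1* and *Hmox1* are lower.

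Between the libraries, members and resident-like cells shared 382 genes past 2-fold in the same direction, of 4247 past the floor in both, and 7 past 2-fold in opposite directions. The 7 were *Tes* (log2 ratios of 1.05 in members and -1.08 in resident-like cells), *Lyz1* (-3.93 and 1.46) and *Iigp1* (-2.18 and 1.59). With them came *Hbb-bs*, *Hba-a1*, *Hba-a2* and *F10*, which are given in a later section. *Trem2* in resident-like cells was 53.4 CPM in Control and 291 CPM in AngII+HS, and *Il1b* 99.9 and 809 CPM. For lipid-handling genes the median log2 ratio was 1.96 in resident-like cells against 1.19 in members. It was 2.04 against 0.72 for monocyte-derived and 0.90 against 0.79 for lysosomal genes, so these shifts were not particular to the members. For interferon-stimulated genes it was 0.89 against 1.38, and for inflammasome and Toll-like receptor genes 0.52 against 0.85.

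The AngII+HS members differed among themselves. The share of a cell's UMIs on the lipid-handling genes had a 10th percentile of 0.621%, a median of 1.82% and a 90th percentile of 5.28%, where the Control members had 0.458, 1.05 and 2.06%. For class II genes, the AngII+HS values were 0.029, 1.77 and 4.55% and the Control values 0.044, 1.25 and 3.54%. Lysosomal genes had medians of 0.919% in Control and 1.59% in AngII+HS members, and immediate early and heat shock genes 1.84 and 1.25%.

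**Figure D5:**
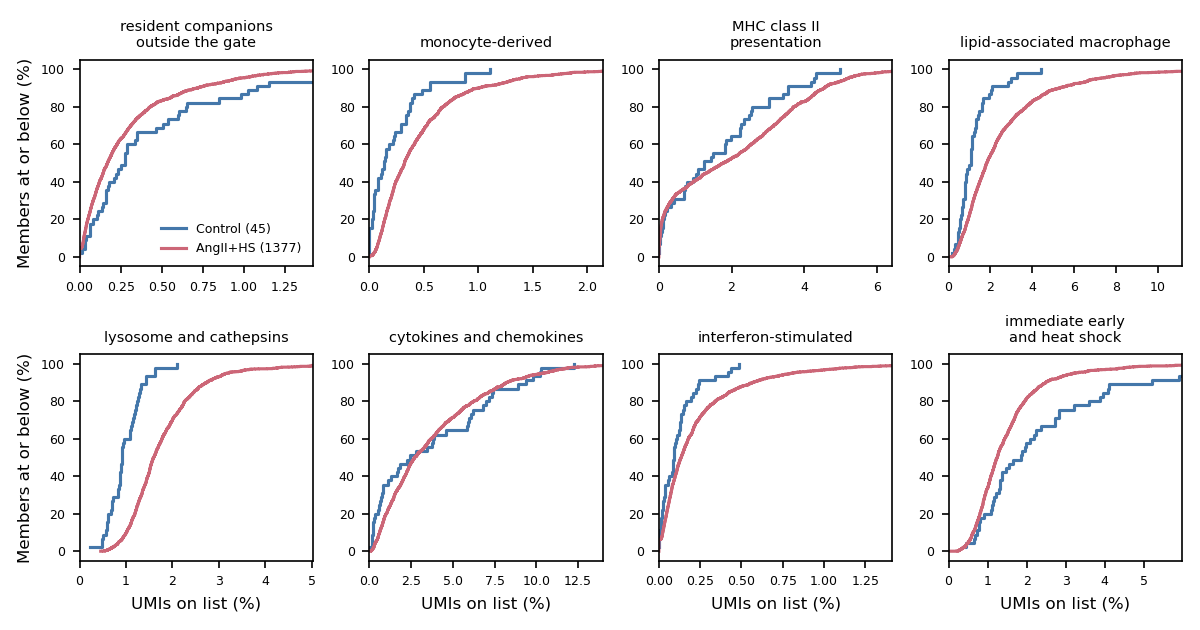
Cumulative share of members (percent, vertical axis) by the percent of a cell's UMIs on each of 8 lists (horizontal axis, cut at the 99th percentile) in 45 Control and 1377 AngII+HS members. Lysosomal genes are shifted to the right in AngII+HS, whereas the cytokine curves cross.

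Combinations of transcripts were counted in the 1319 AngII+HS members thinned to 2000 UMIs. *Fabp5* was found in 78.9% of the 152 cells with *Gpnmb* and in 24.1% of those without it, and *H2-Ab1* in 38.2 and 76.9%. *Ccr2* was found in 5.92 and 21.8% of the same groups. Lymphocytes of the library, thinned alike, held *Fabp5* in 13.01%, *H2-Ab1* in 45.2% and *Ccr2* in 10.1% of cells. The *H2-Ab1* and *Ccr2* shares in cells with *Gpnmb* were lower than these. Lymphocytes can make both transcripts themselves, however, so their shares are not a level of free RNA alone. The cells with and without *Gpnmb* stood at median depths before thinning of 5320.5 and 4522 UMIs.

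*H2-Ab1* was found in 87.5% of the 263 cells with *Ccr2* and in 68.7% of those without. *Trem2* was found in 29.6% of the 955 cells with *H2-Ab1* and in 51.9% of those without. *Il1rn* was found in 48.9% of the 946 cells with *Il1b* and 24.7% of those without, and *Il10* in 37.1 and 25.7%. *Mrc1* was found in 66.1% of the 174 cells with *Ccl8* and in 36.2% of the others. *Isg15* was found in 40.4% of the 171 cells with *Irf7* and 23.8% of the others. In lymphocytes the shares were 1.37% for *Trem2*, 4.97% for *Il1rn*, 3.85% for *Il10*, 1.63% for *Mrc1* and 9.93% for *Isg15*. These are shares of cells of 1 library and carry no replicate error.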

How the data were processed

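Droplet-based single-cell RNA sequencing of abdominal aorta gave 1 library per condition at day 28. The authors made the deposited UMI counts per gene and barcode with Cell Ranger (7.0 in the methods, 8.0.1 in the matrix header) and kept barcodes called as cells. The build is GRCm39 in the methods and mm10 in the labels. The deposited barcodes held at least 501 UMIs in Control and 500 UMIs in AngII+HS, and the values are raw counts. The barcode lists were not joined to the matrices. They share 67 barcodes, and under the matching list 0 Control and 1 AngII+HS member carry a shared barcode.

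Barcodes with at least 500 UMIs, 200 genes and under 20% mitochondrial UMIs were kept, and members were chosen from raw counts. Members, lists and tests were chosen with earlier results of these data known. UMIs were summed over members per library and given as counts per 1000000 UMIs (CPM). Intervals are 95% exact. Log2 ratios of genes carry 0.5 UMIs added, whereas ratios not given as log2 are plain quotients of the 2 CPM values. The floor is a mean CPM worth 10 UMIs in the smaller sum. A value of 0 was set to 3 UMIs for a bound. Lymphocytes are kept cells with at least 2 UMIs of *Cd3d*, *Cd3e* and *Cd3g* or of *Cd79a* and *Cd79b* that met the other exclusions and held under 5 C1q UMIs. Their levels can include transcripts of their own, so they stand for free RNA only where T and B cells lack the gene. Doublets, scored with Scrublet in scanpy 1.11.5 at 0.8% per 1000 barcodes, were left in the members (5 Control, 132 AngII+HS) and removed as an alternative. Genes above lymphocyte level are those past the floor with a UMI in at least 10% of members of 1 library and a CPM at least 3 times that of lymphocytes in the library where they are higher. From these, the 12 highest and 12 lowest ratios were named, mitochondrial and ribosomal genes and gene models left out, with the list genes and the 10 most abundant genes. Genes differing from resident-like cells were ranked by the smaller of their 2 ratios, 1 per library. Results that need certain genes, 1 of them a zero condition of the gate, are not reported here, and counts over lists still include such genes. Values for cells left out, thinning and combinations were chosen with the data in view.

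Alternatives were a stricter cell filter (1000 UMIs, 500 genes, 10% mitochondrial), other C1q thresholds (3 or 10), 1 UMI allowed in the zero conditions, cells of at least 3000 UMIs, thinning to 2000 UMIs, TMM scaling (edgeR 4.0.16), equal weight per cell, subtraction of the lymphocyte profile and other floors. Coordinates are from GENCODE vM39 on GRCm39, where 33185 of 33696 gene IDs matched. Python 3.11.15, numpy 2.4.6, scipy 1.17.1, pandas 2.3.3, matplotlib 3.10.9 and R 4.3.3 were used.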

Additional observations from a re-analysis of the deposited data

Results flagged for a closer look

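Summed hemoglobin transcripts went in opposite directions in the members and in the resident-like macrophages. No erythroid UMI was held by 97.8% of Control and 89.3% of AngII+HS members, so the sums are not a trait of most members. *Hbb-bs*, a beta-globin gene of red blood cells, had a log2 ratio of AngII+HS over Control of 5.86 in the members and -2.27 in the resident-like cells, *Hba-a1* of 5.85 and -2.64, and *Hba-a2* of 5.38 and -2.32. *Hba-a1* and *Hba-a2* had no UMI in the Control members, so their member ratios rest on the 0.5 UMIs added. Against the floor of 3 UMIs over the Control members they were at least 9.61-fold and 6.92-fold higher in AngII+HS. The difference was not tested, since each gate has 1 library per condition. In CPM, *Hbb-bs* had 3.71 in Control and 322 in AngII+HS members, 12.7 and 337 in lymphocytes, and 601 and 124 in resident-like cells. Without the members holding at least 1% of UMIs of other cell types, erythroid genes included, its log2 ratio in the members was 0.79. That setting removes cells by these very UMIs, so a fall was fixed beforehand. In settings that do not, the median of the erythroid genes past the floor was 5.90 after thinning to 2000 UMIs. It was 3.91 without doublets and 5.11 with equal weight per cell, where 1 such gene passed the floor.

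*F10*, which encodes coagulation factor X, had a log2 ratio of -1.38 in the members and 3.48 in the resident-like cells. That difference was not tested either. In the Control members, 93.8% of its 16 UMIs lay in 1 cell.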

How the results depend on the processing

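No paired analysis was possible because each condition has 1 library, and leaving out a replicate is void for the same reason. Each of the 24 named genes kept the sign of its ratio in each setting run, but some sizes varied widely, with *Il1b* between 2.58 and 3.25, *Fabp5* between 4.83 and 6.89, *Acp5* between 1.76 and 6.29, *Vegfa* between 2.73 and 6.30 and *Sncg* between -10.5 and -1.44. In all, 12 of their values moved beyond the counting interval and 420 did not. Of the list counts, 65 of genes higher and 41 of genes lower moved by over 1.5 times, against 330 and 157 that did not. The values that follow moved by more than their counting interval or by over 1.5 times, and the cause was not tested except where the setting itself fixes it. As log2 ratios of AngII+HS over Control, the share of kept cells was 3.81 and that of C1q macrophages 2.32. Allowing 1 UMI in the zero conditions gave 3.298 and 1.80, with 840 genes lower and a median of -1.38 for immediate early and heat shock genes. Cells of at least 3000 UMIs gave 4.32 for the share of kept cells, and medians of 0.53 for class II and -0.68 for angiotensin and corticosteroid genes. Thinning to 2000 UMIs gave 1.78 for the share of C1q macrophages, and medians of -0.25 for cytokines, 0.62 for interferon-stimulated, 1.91 for cell cycle, -0.84 for immediate early and heat shock and -2.77 for smooth muscle genes. At least 10 C1q UMIs gave -2.24 for smooth muscle genes.

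Removing doublets gave medians of 0.27 for identity, 0.19 for class II, -0.0070 for cytokines, 1.07 for respiratory chain, -0.69 for immediate early and heat shock, 1.14 for fibroblast and -1.42 for smooth muscle genes. Leaving out members with at least 1% of UMIs of other cell types gave 353 genes lower and, in the same order, 0.27, 0.15, 0.031, 1.03, -0.70, 1.73 and -1.13. Leaving out members with any such UMI left 1 Control and 27 AngII+HS cells, with 3.20 for the share of C1q macrophages and no gene values. Without the 2 deepest Control members, medians were 0.22 for class II and 0.48 for matrix protease genes. The 1% limit and the setting without the deepest Control members were added after the data were seen.

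TMM scaling, which shifts each ratio upward by construction, gave 761 genes higher and 332 lower, and medians of 0.98 for identity, 0.79 for class II, 1.59 for lipid-handling, 1.19 for lysosome, 0.75 for cytokine, 1.25 for inflammasome and Toll-like receptor, 0.73 for complement, 0.70 for iron, 0.10 for growth factor, 2.35 for cell cycle, -0.74 for immediate early and heat shock, -0.048 for transcription factor, 0.77 for fibroblast and -2.09 for smooth muscle genes. Equal weight per cell gave -1.10 for resident companions, 1.27 for monocyte-derived, 0.23 for class II, -0.85 for immediate early and heat shock and -2.10 for smooth muscle genes. Subtracting the lymphocyte profile gave 1.75 for monocyte-derived, 0.22 for class II, 2.86 for cell cycle and -2.95 for smooth muscle genes. A floor of 5 UMIs gave 1013 genes lower and 0.60 for complement genes, and a floor of 20 UMIs 268 genes lower. Depth limits the Control side, where 45 cells stand against 1377.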
